A study of Mus musculus with 12 samples.

Results

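Rab GTPases are small GTP-binding proteins that give each membrane compartment of the cell its identity and direct vesicles between compartments. A Rab is switched on by an exchange factor (GEF), which loads GTP, and off by an activating protein (GAP), which speeds GTP hydrolysis. In its active form it sits in the membrane through prenyl groups and recruits effectors such as tethers and motor adaptors, and the GDP-bound form is extracted by a dissociation inhibitor (GDI). In macrophages Rabs carry cargo through endocytosis, phagosome maturation, lysosomal delivery, receptor recycling and secretion. The members were chosen by name: every gene of the deposited counts table whose mouse symbol is Rab followed by a number, with an optional letter and digit. This gave 46 of 12339 genes. They were ordered by known role into 12 genes of the endoplasmic reticulum (ER), the Golgi and early secretory traffic, 8 of early endosomes and uptake, 10 of recycling and transport to the plasma membrane, 7 of late endosomes, lysosomes and lysosome-related organelles, 6 of regulated secretion, and 3 of the cilium and others.

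The RNA came from thioglycolate-elicited peritoneal macrophages of wild-type (WT) mice and of mice labelled meKO, read here from the series title as a myeloid knockout of protein kinase C epsilon (Prkce). The 4 groups, each of 3 libraries, were WT on chow, WT on a high-fat Western diet (HFD), meKO on chow and meKO on HFD. All mice, controls included, received an AAV8 vector at 8 weeks of age, and cells were collected by lavage after a further 4 weeks. The labels describe 8 WT and 8 meKO mice, of which 12 libraries were analysed here, and do not name the Cre driver or floxed allele. Library titles carry different numbers, but the labels do not say in words that each is 1 animal, so the p-values measure the spread between these libraries.

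The libraries held 25844958 to 37282772 counts, and replicates differed by more than counting noise (chi-square per degree of freedom 16.9 to 110). Prkce was at 2.01 to 4.44 CPM (counts scaled to a common library size with TMM factors) in the 6 WT libraries and at 0.950 to 1.78 CPM in the 6 meKO libraries. Its log2 fold change between genotypes was -1.47 on chow (edgeR adjusted p = 0.0794) and -0.80 on HFD (edgeR adjusted p = 0.989). Averaged over diets it was -1.13 (edgeR adjusted p = 0.0588), so Prkce was not called in any of these. Macrophage markers were high throughout: Adgre1, Cd68, Csf1r, Itgam, Mertk and Fcgr1 summed to 4765 to 6041 CPM. Lyz2, the myeloid lysozyme gene, was near absent from meKO chow replicate 2 (69.3 CPM). The remaining 5 libraries of that genotype held 16293 to 21310 CPM of it and WT libraries 30482 to 53835. WT chow replicates 1 and 2 also stood apart: across 12049 genes, the deviation from the mean over libraries rose with exon length (Spearman rho 0.63 and 0.67), against -0.46 to 0.15 in the other 10 libraries. For some values that rest on these libraries, results without them are given below. For others just the number of alternatives passed is given. In bulk RNA, fewer cells of a type and less RNA per cell cannot be told apart.

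Summed over the family, Rab transcripts took 0.444% to 0.516% of all counts. Levels between genes are compared per length, as CPM per kilobase of exon (CPM/kb). On that scale Rab5c, which drives early endosome fusion with its paralogs Rab5a and Rab5b, was highest at a mean of 183 CPM/kb over the 12 libraries. Rab1a, which carries vesicles from the ER to the Golgi, followed at 172 CPM/kb, and Rab7, the Rab of late endosome to lysosome fusion, at 158 CPM/kb. Rab14, which works between the Golgi and endosomes, led the recycling genes at 102 CPM/kb. The ranges over libraries of Rab5c, Rab1a and Rab7 overlapped, so their order is not resolved. Rab28, linked to cilia and photoreceptors, led the cilium group at 30.1 CPM/kb. The regulated secretion group was the lowest: Rab3d, a Rab of secretory granules, led it at 4.00 CPM/kb, and Rab27b, a granule-docking Rab, was the lowest of all members at 0.164 CPM/kb and 1.24 CPM.

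Recycling genes made up 27.2% of summed Rab CPM, ER and Golgi genes 26.1%, early endosome genes 23.0% and late endosome and lysosome genes 21.5%. The cilium group gave 1.46% and regulated secretion 0.668%. Thus 28 members exceeded 10 CPM/kb, while 10 had a mean under 5 CPM. The depth behind a member ranged from 14 counts for Rab27b in 1 library to 18189 for Rab1a. In 25 members every library had at least 1000 counts, and 8 members had a library under 100 counts. The ratio of the highest to the lowest library in CPM was under 1.5 for 20 members and at least 2 for 10, from 1.21 for Rab6a to 4.63 for Rab44.

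**Figure D1:**
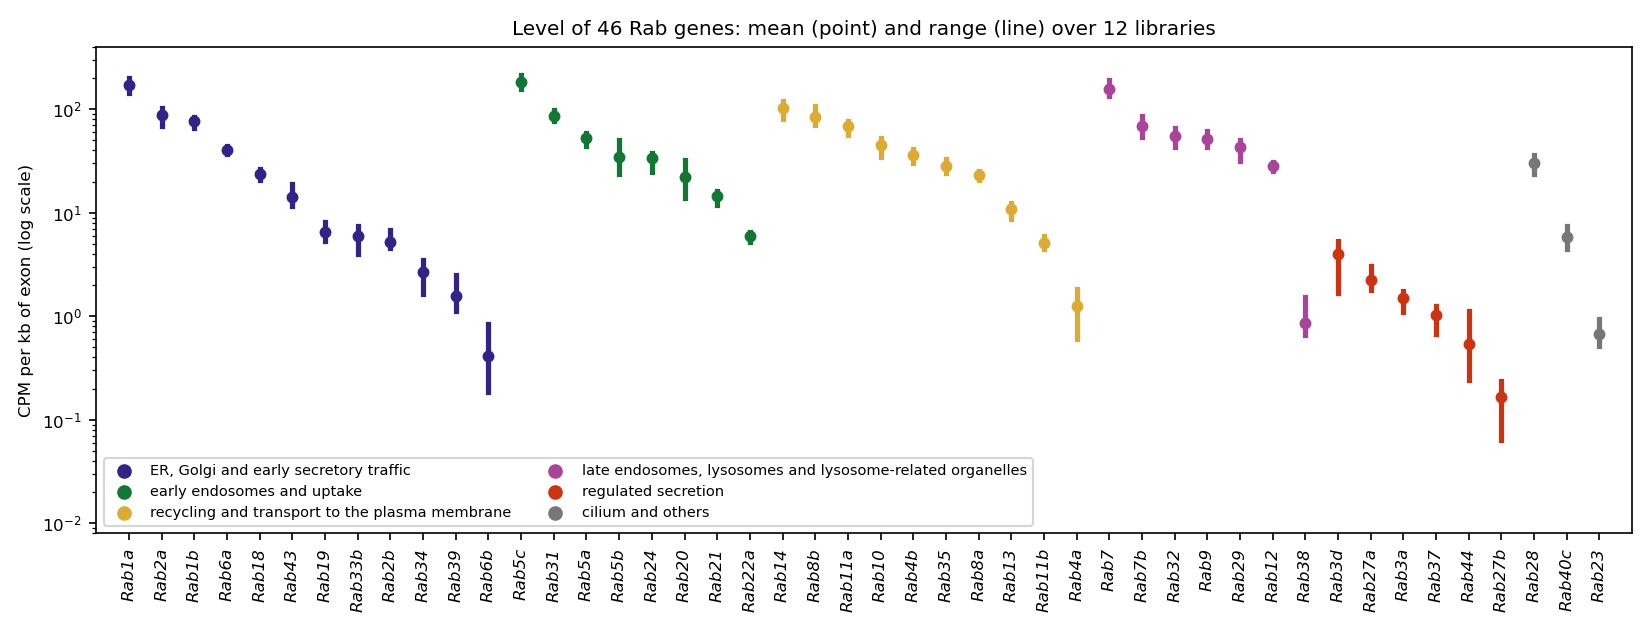
Level of each of the 46 Rab genes in CPM per kilobase of exon on a log scale; points are means over 12 libraries, lines run from the lowest to the highest library, and colours mark roles. Means run from 183 for Rab5c down to 0.164 for Rab27b, and all 6 regulated secretion genes sit at or below 4.00.

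Rab3d was the member with the clearest difference between groups. Its protein sits on secretory granules and vesicles in exocrine cells, mast cells and osteoclasts and acts in regulated exocytosis. The gene (Entrez 19340) lies on the minus strand at chr9:21907491-21918192 in GRCm38. Its RefSeq promoter window is shown because Rab3d carries the genotype result. It runs 5′ to 3′ on the gene's strand from 250 bases before to 50 after the start (GRCm38.p6), with GC boxes (GGGCGG on either strand) in capitals.

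Rab3d (chr9:21918134-21918433): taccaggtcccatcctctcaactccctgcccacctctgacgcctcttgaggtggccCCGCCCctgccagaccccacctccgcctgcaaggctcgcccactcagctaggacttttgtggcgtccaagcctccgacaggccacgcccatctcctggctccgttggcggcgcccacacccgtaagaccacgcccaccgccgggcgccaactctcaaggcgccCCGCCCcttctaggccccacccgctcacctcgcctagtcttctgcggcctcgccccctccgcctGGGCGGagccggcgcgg

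The window held 3 GC boxes, and neither a CCAAT box nor an E-box (CACGTG) on either strand. A GC box was found in 35.7% of all 32851 RefSeq windows of this length and in 72.3% of the 47 windows of the 38 members with an entry.

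The 3 WT chow libraries held Rab3d at 16.2, 21.1 and 15.2 CPM, and those of WT HFD at 19.8, 20.2 and 19.0 CPM. In meKO chow it was at 19.8, 16.0 and 18.4 CPM, and in meKO HFD at 9.34, 6.68 and 8.06 CPM. All 3 meKO HFD libraries lay below the other 9, with 175 to 342 counts against 459 to 723. Group means were 17.5 ± 3.16 (SD, n = 3) in WT chow, 19.7 ± 0.639 in WT HFD, 18.1 ± 1.91 in meKO chow and 8.03 ± 1.33 in meKO HFD. On HFD, Rab3d was 2.44-fold lower in meKO than in WT (log2 fold change -1.29, SE 0.16, adjusted p = 0.00486 by edgeR's quasi-likelihood test with Benjamini-Hochberg adjustment over all genes). It was the sole member called in that comparison, in which 0.081% of all genes were called in either direction and 0.0324% lower, and by p it ranked 3 among the 12339 genes. The difference passed in 22 of 22 alternatives, with log2 fold changes of -1.42 to -1.18 and adjusted p of 5.35e-11 to 0.0386. The fit with no low-count filter, which is among these, repeats the main fit. Those that leave out a chow library keep every HFD library.

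Within meKO, Rab3d was lower on HFD than on chow (log2 fold change -1.17, SE 0.16, edgeR adjusted p = 0.0110). It was again the sole member called, against 0.105% of all genes in either direction and 0.0729% lower. This comparison shares the meKO HFD libraries with the one above. Its adjusted p was 0.0742 when just these groups were fitted, 0.0518 without meKO chow replicate 3, 0.0831 without meKO HFD replicate 2 and 0.101 without meKO HFD replicate 3. Without meKO chow replicate 2, the library low in Lyz2, the fall was -1.26 with an edgeR adjusted p of 0.0282.

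Rab3d did not pass on chow between genotypes (log2 fold change 0.05, SE 0.15, edgeR adjusted p = 0.879) or between diets in WT (0.17, SE 0.15, edgeR adjusted p = 0.427). The interaction, which is the diet difference in meKO minus that in WT, was -1.34 (SE 0.22) with an edgeR adjusted p of 0.0718, so it missed the threshold of 0.05, and no member passed it with edgeR, against 0.0162% of all genes. Unadjusted p was under 0.05 for 3 members (6.52%, against 6.13% of all genes). By unadjusted p Rab3d ranked 5 among all genes. With DESeq2, which called no other member, the adjusted p was 1.42e-05, and it was below 0.05 in 6 of 21 alternatives, with a range up to 0.297. By edgeR the adjusted p was 0.297 without WT chow replicate 1 and 0.0296 without WT chow replicate 2. Averaged over diets, Rab3d was lower in meKO (-0.62, edgeR adjusted p = 0.0379, passing in 13 of 21 alternatives), the sole member called against 0.17% of all genes, and averaged over genotypes it was lower on HFD (-0.50, edgeR adjusted p = 0.00886, passing in 21 of 21). Both averages rest on the meKO HFD libraries. The genotype average was not called without WT chow replicate 2 (edgeR adjusted p = 0.100) or without meKO chow replicate 2 (edgeR adjusted p = 0.108).

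Rab3d is also a gene of mast cell granules, so the mast cell list (Cpa3, Tpsb2, Mcpt4, Cma1, Kit and Fcer1a, all 6 in the table) was set beside it. Its summed level was 198 to 291 CPM in meKO HFD, 200 to 232 in WT HFD, 211 to 253 in WT chow and 57.0 to 353 in meKO chow. In meKO chow replicate 3, where the sum was 57.0 CPM, Rab3d was at 18.4 CPM. The neutrophil list (4 of 7 in the table, without Ly6g, Camp and Ngp) summed to 27.6 to 50.6 CPM in meKO HFD against 22.7 to 24.1 in WT HFD, and to 30.5 to 50.01 in meKO chow. The T and NK cell list (6 of 6) separated the same groups as Rab3d, at 10.99 to 14.9 CPM in meKO HFD against 8.09 to 9.56 in WT HFD and 7.04 to 8.47 in meKO chow, and stood at 5.12 to 14.7 in WT chow. The mesothelial and fibroblast list (6 of 6) was at 86.8 to 112 CPM in meKO HFD and 42.5 to 76.2 in meKO chow, also without overlap. The part of these lists in the Rab3d differences was not tested.

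Of the genes in the table, 44 lie within 1 Mb of Rab3d. None was called between genotypes on HFD (log2 fold changes -0.64 to 0.71) or between diets in meKO (-1.53 to 1.13), while edgeR called Rab3d itself in both. Between genotypes on HFD and between diets in meKO, unadjusted edgeR p-values were under 0.05 for 4 and 8 of the 44 neighbours. Of all genes, 4.56% and 15.9% had such a p. DESeq2 called 1 and 3 neighbours, against 0.43% and 1.84% of all genes. Limma-voom called 0 and 0, against 0.0405% and 0.0729%, and with quality weights 2 and 4, against 1.04% and 3.23%. Averaged over diets, Acp5, the tartrate-resistant acid phosphatase, was higher in meKO (0.48, edgeR adjusted p = 0.0379, passing in 11 of 21 alternatives). Between diets in WT, edgeR called 3 of the 44 neighbours higher and 8 lower, against 9.5% and 11.8% of all genes. Averaged over genotypes, 6 were higher on HFD, Acp5 included (0.44, edgeR adjusted p = 0.00604), and 11 lower, against 14.9% and 15.3% of all genes.

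The other regulated secretion genes were not called by edgeR in any of the 7 contrasts. With quality weights, limma-voom called Rab37 between genotypes on chow (0.47, adjusted p = 0.0456), between diets in WT and averaged over genotypes, and Rab27a between genotypes averaged over diets (-0.31, adjusted p = 0.0408). In the same order, that setting called 32.8%, 52%, 51% and 31.1% of all genes. Without WT chow replicate 3, edgeR called Rab37 between diets in WT (0.61, adjusted p = 0.0277) and averaged over genotypes, along with 39.9% and 43.2% of all genes. Rab27a, which docks lysosome-related organelles and exosomes, was at 7.36, 9.80 and 8.30 CPM in WT chow and at 5.72, 7.35 and 6.19 CPM in meKO chow. The lowest WT chow library lay barely above the highest meKO chow library, and the log2 fold change was -0.40 (SE 0.16, edgeR adjusted p = 0.201). Rab27b, its paralog, was at 1.52 to 1.78 CPM in WT chow and at 0.484 to 1.40 in the 9 other libraries (genotype on chow -0.56, SE 0.34, edgeR adjusted p = 0.353). Rab37, another granule Rab, was at 1.90 to 3.01 CPM in WT chow and 2.69 to 3.52 CPM elsewhere. Rab3a, the synaptic vesicle Rab, stayed between 1.98 and 3.15 CPM. Rab44, a large Rab known from mast cell granules, varied most within a group: in meKO chow it was at 2.63, 1.82 and 5.29 CPM, the highest being replicate 3, which had the lowest mast cell sum.

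**Figure D2:**
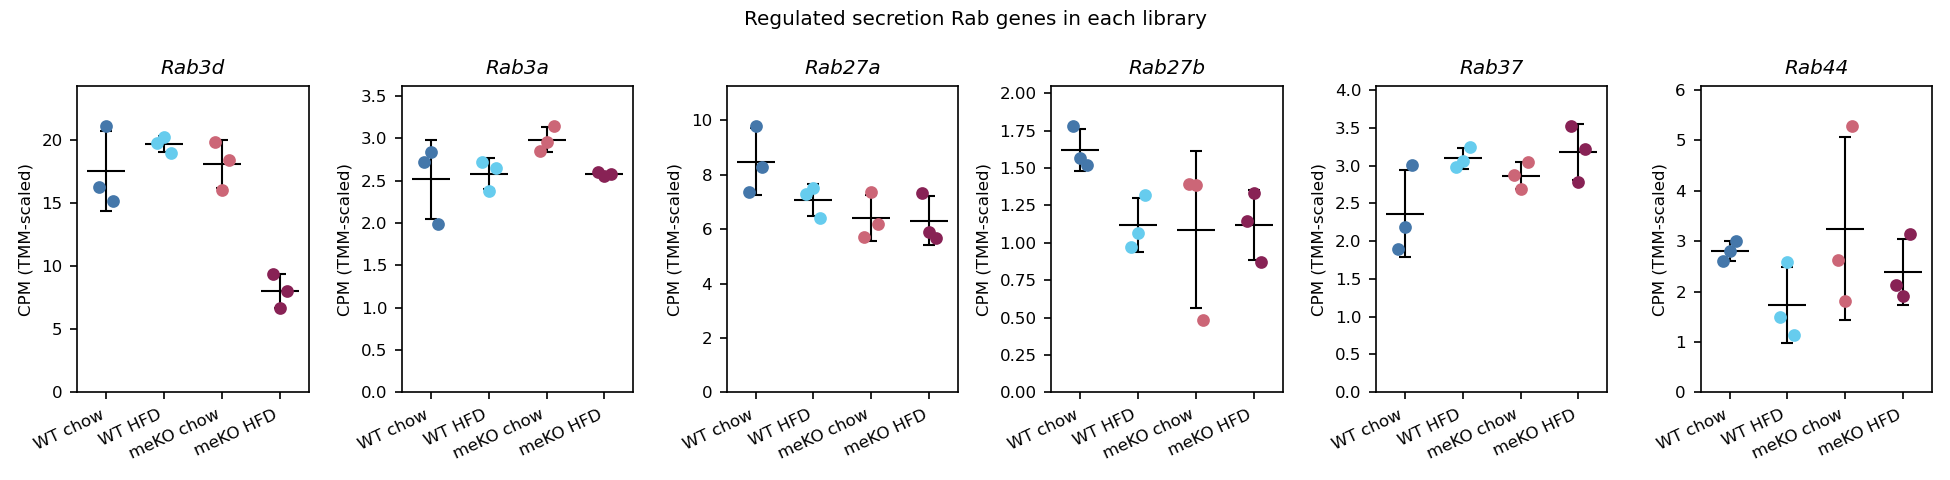
CPM of each regulated secretion Rab gene in every library, by group; points are libraries, horizontal lines are means of 3 and error bars are SD. For Rab3d the meKO HFD points, at 6.68 to 9.34, lie below the other 9, at 15.2 to 21.1; in the other 5 genes meKO HFD overlaps at least 1 other group.

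Between genotypes on chow, no member was called by edgeR, against 0.081% of all genes. DESeq2 and limma-voom called none either, limma-voom with quality weights called 9, along with 32.8% of all genes, and 7 members had an unadjusted edgeR p under 0.05 (15.2%, against 19.8% of all genes). The groups did not overlap for 10 of 46 members (21.7%, against 17.1% of all genes), with 8 higher and 2 lower in meKO (8.87% and 8.28% of all genes). The median log2 fold change was 0.11 over members and -0.00 over all genes, with 30 members positive and 16 negative. That lean depended on the scaling: with library totals it was 24 positive and 22 negative with a median of 0.04, all genes standing at -0.07, and after a length and GC correction 23 and 23 with a median of 0.00. All 7 late endosome and lysosome genes were positive (median 0.13), with none called by edgeR, while 6147 of all 12339 genes were positive. Rab9, a late endosome Rab, was called with quality weights in limma-voom (0.35, adjusted p = 0.0250) and by edgeR without WT chow replicate 3 (0.38, adjusted p = 0.0386). The fit without that library called 20.6% of all genes. Rab7 was at 373, 379 and 410 CPM in WT chow and 423, 458 and 446 CPM in meKO chow, so that the groups did not overlap (0.19, SE 0.11, edgeR adjusted p = 0.340).

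On HFD, meKO and WT did not overlap for 6 of 46 members, against 10.3% of all genes, 4 of them higher and 2 lower in meKO (5.45% and 4.85% of all genes). The median over members was 0.02 and over all genes 0.02. All 10 recycling genes had positive values, with a median of 0.06, and none was called. Of all genes, 6654 of 12339 were positive. Over all members, 30 were positive and 16 negative. With library totals this became 24 and 22, and after the length and GC correction 26 and 20. Rab4a, a fast-recycling Rab singled out after its values were seen, was at 1.07, 1.69 and 1.86 CPM in WT HFD and 2.51, 3.17 and 2.22 CPM in meKO HFD. It did not pass (0.77, SE 0.26, edgeR adjusted p = 0.820), nor did its genotype difference averaged over diets (0.61, SE 0.18, edgeR adjusted p = 0.166).

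**Figure D3:**
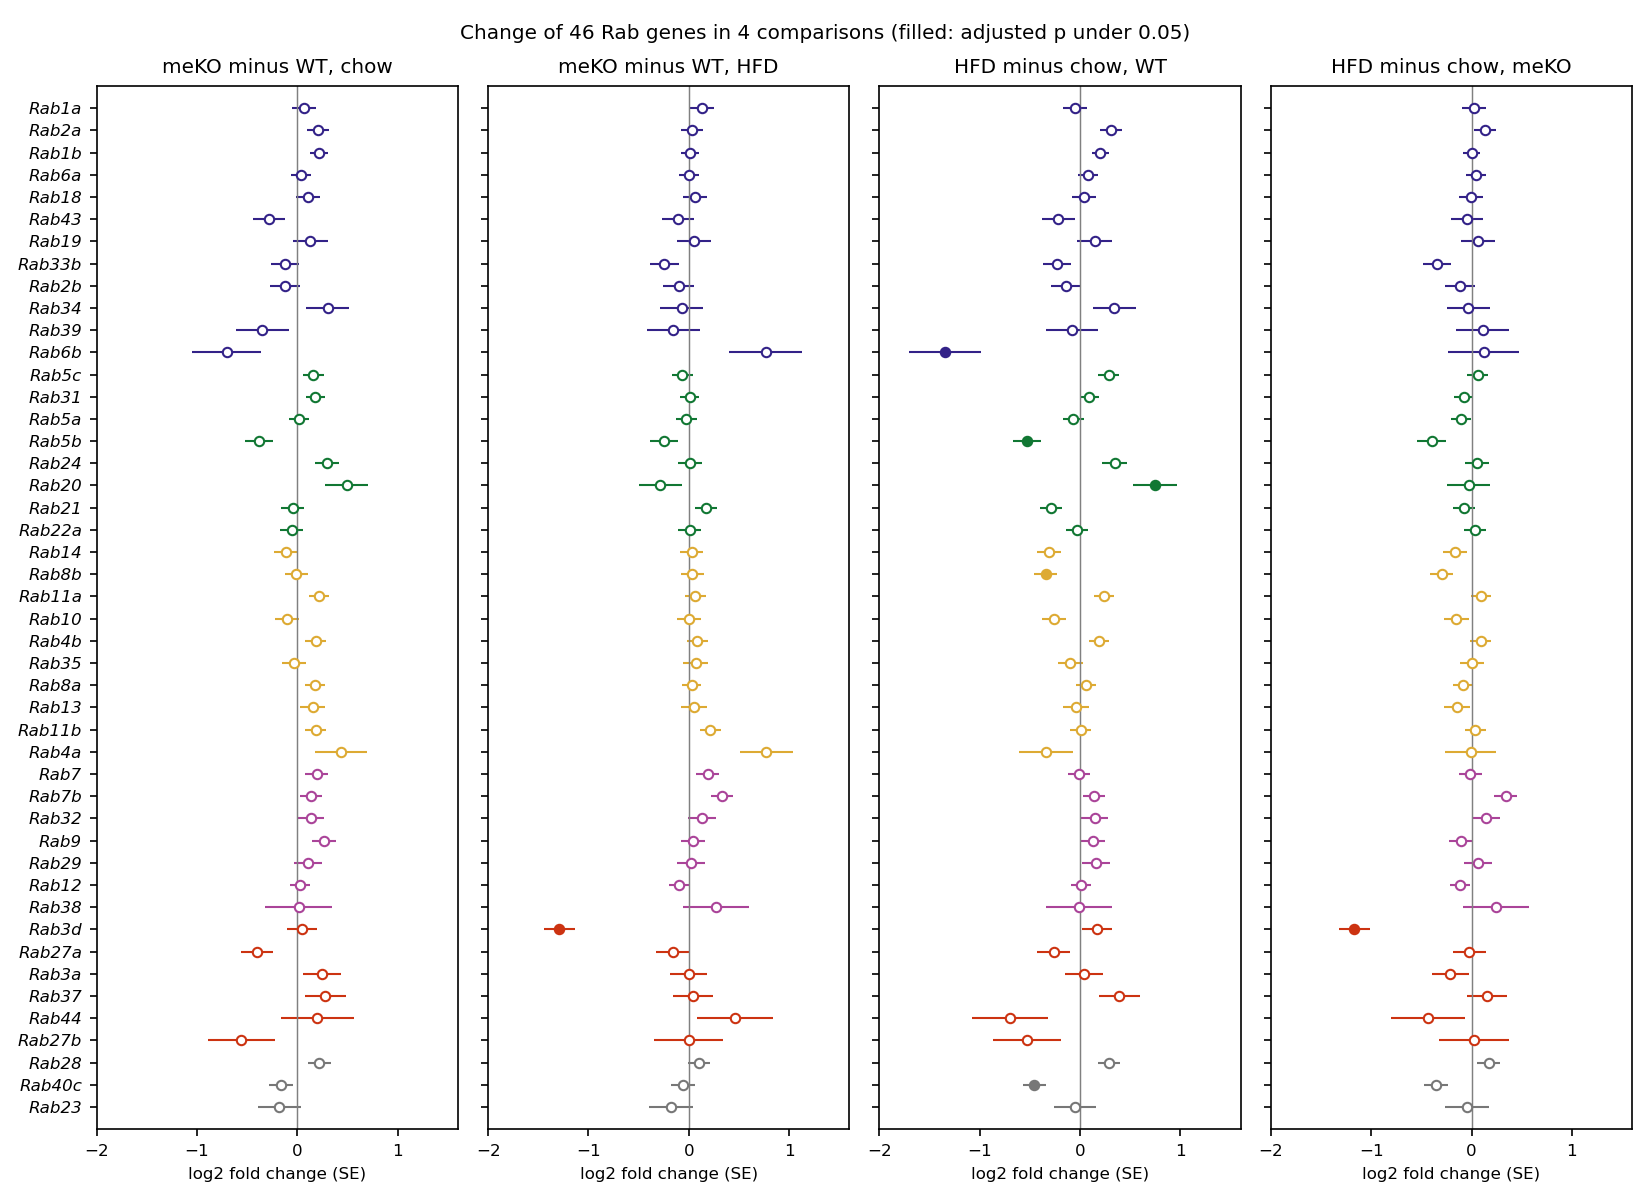
Log2 fold change with its standard error for each of the 46 Rab genes in 4 comparisons; filled points have an adjusted p under 0.05 (edgeR). Rab3d is the sole filled point between genotypes on HFD (-1.29) and between diets in meKO (-1.17), no point is filled between genotypes on chow, and 5 are filled between diets in WT.

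Of the 4 comparisons between pairs of groups, high-fat diet in WT gave the most edgeR calls, with 1 member higher and 4 lower (5 of 46, 10.9%). In this comparison 21.3% of all genes were called, 9.5% higher and 11.8% lower. The groups did not overlap for 16 members (34.8%, against 39.3% of all genes). DESeq2 called 7 members higher and 4 lower, against 28.5% of all genes in either direction, and its 11 calls included the 5 of edgeR. The higher one by edgeR was Rab20 and the lower ones Rab5b, Rab40c, Rab8b and Rab6b. The B cell list (5 of 6 in the table, without Pax5) moved with this comparison, at 106 to 163 CPM in WT chow and 51.9 to 87.2 in WT HFD. So did the mesothelial and fibroblast list (6 of 6), at 41.5 to 68.9 and 71.7 to 112 CPM, and the dendritic cell list (5 of 5), at 29.3 to 47.6 and 16.4 to 26.1 CPM. Their part in the Rab values was not tested.

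The promoter windows of 4 of these genes are shown, 3 that were lower and Rab20 that was higher, from RefSeq (GRCm38.p6), 5′ to 3′ on the gene's strand, all on the minus strand. Capitals mark GC boxes and E-boxes as spelled above for Rab3d, and CCAAT boxes, on either strand, so that a box on the other strand reads as its reverse complement.

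Rab5b (chr10:128696219-128696518): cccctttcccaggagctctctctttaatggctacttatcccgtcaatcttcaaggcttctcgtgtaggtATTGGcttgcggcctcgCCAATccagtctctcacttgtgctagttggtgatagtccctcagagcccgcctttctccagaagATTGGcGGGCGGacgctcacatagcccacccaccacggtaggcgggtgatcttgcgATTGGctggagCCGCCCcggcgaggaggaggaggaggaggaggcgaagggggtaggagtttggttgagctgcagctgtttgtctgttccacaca

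Rab40c (chr17:25919665-25919964): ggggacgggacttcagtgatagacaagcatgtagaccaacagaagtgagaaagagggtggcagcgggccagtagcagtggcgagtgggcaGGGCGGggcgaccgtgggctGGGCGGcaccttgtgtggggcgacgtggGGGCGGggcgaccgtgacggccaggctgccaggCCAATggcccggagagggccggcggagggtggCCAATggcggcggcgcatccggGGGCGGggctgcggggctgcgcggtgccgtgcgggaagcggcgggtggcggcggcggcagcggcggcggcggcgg

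Rab8b (chr9:66919656-66919955): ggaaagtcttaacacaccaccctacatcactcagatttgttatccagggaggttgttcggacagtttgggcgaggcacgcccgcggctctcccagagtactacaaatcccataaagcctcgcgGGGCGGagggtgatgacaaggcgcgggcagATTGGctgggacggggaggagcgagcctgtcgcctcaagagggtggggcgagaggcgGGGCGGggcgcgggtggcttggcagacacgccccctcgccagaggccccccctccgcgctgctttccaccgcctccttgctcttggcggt

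Rab20 (chr8:11478591-11478890): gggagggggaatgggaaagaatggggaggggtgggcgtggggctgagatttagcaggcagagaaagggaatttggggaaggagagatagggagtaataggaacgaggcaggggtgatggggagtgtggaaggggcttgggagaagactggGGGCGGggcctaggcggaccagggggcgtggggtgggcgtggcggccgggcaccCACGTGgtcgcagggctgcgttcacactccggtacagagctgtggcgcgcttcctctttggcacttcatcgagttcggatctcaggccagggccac

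Rab5b had 2 GC boxes and 4 CCAAT boxes, Rab40c 4 and 2, Rab8b 2 and 1, and Rab20 a GC box and an E-box but no CCAAT box. A CCAAT box was found in 37.4% of all windows and 46.8% of member windows, and an E-box in 7.15% and 12.8%, over the same unlike sets as for Rab3d above. These matches describe letters in a window and are not evidence of a bound site.

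Rab5b, a Rab of early endosome fusion, was at 161, 152 and 117 CPM in WT chow and at 110, 99.6 and 88.5 CPM in WT HFD. In meKO it was at 105, 107 and 120 CPM on chow and at 98.5, 77.7 and 75.0 CPM on HFD. In each genotype the HFD libraries all lay below the chow libraries. Rab5b fell by 0.53 on the log2 scale in WT (SE 0.14, edgeR adjusted p = 0.0244) and had a value of -0.40 in meKO (SE 0.14, edgeR adjusted p = 0.252). The interaction was 0.13 (SE 0.20, edgeR adjusted p = 0.887).

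Rab40c, which acts as the substrate receptor of a cullin ubiquitin ligase, was at 17.9, 18.9 and 17.0 CPM in WT chow and 12.5, 14.3 and 12.5 CPM in WT HFD. In meKO it was at 15.5, 15.6 and 17.1 CPM on chow and 13.8, 12.5 and 11.4 CPM on HFD. Rab40c fell by 0.46 in WT (SE 0.12, edgeR adjusted p = 0.0227), and its value in meKO was -0.35 (SE 0.12, edgeR adjusted p = 0.228).

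Rab8b, a Rab of transport to the plasma membrane, was at 492, 436 and 400 CPM in WT chow and 334, 351 and 361 CPM in WT HFD. In meKO it was at 398, 416 and 504 CPM on chow and 358, 337 and 378 CPM on HFD. Rab8b fell by 0.34 in WT (SE 0.11, edgeR adjusted p = 0.0472), and its value in meKO was -0.30 (SE 0.11, edgeR adjusted p = 0.268). For Rab40c and Rab8b all 6 HFD libraries lay below all 6 chow libraries, which held for 2.77% of all genes in this direction. Rab8b was just inside the threshold and passed in 11 of 22 alternatives, while Rab40c passed in 18 and Rab5b in 17.

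Rab20, a Rab of phagosome maturation in macrophages, was at 19.3, 22.2 and 25.9 CPM in WT chow and 43.0, 25.2 and 45.0 CPM in WT HFD. WT HFD replicate 2 lay within the WT chow range. In meKO it was at 36.3, 34.7 and 23.7 CPM on chow and 26.5, 31.5 and 35.3 CPM on HFD, ranges that overlapped. Rab20 rose by 0.75 in WT (SE 0.22, edgeR adjusted p = 0.0307), and its value in meKO was -0.03 (edgeR adjusted p = 0.964). The interaction was -0.77 (SE 0.30, edgeR adjusted p = 0.773). The call was lost after a length and GC correction and without WT chow replicate 1 or 2 or WT HFD replicate 1 or 3 (log2 fold change down to 0.51). A noncoding gene read from the opposite strand, E230013L22Rik, covers 25.6% of Rab20 exon bases and was at 0.574 to 1.75 CPM, and no strand setting is given for the counts.

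Rab6b, the Golgi Rab best known from neurons, was scarce. It was at 4.27, 3.17 and 1.95 CPM in WT chow, the 2 highest being the libraries with the length trend, and at 1.52, 1.24 and 0.932 CPM in WT HFD. In meKO it was at 1.04, 2.04 and 2.73 CPM on chow and 2.49, 1.95 and 1.83 CPM on HFD. Rab6b fell by 1.35 in WT (SE 0.36, edgeR adjusted p = 0.0244), with 0.12 in meKO (SE 0.35, edgeR adjusted p = 0.885) and an interaction of 1.47 (SE 0.50, edgeR adjusted p = 0.773). Rpl29, a ribosomal protein gene 3244178 bases from Rab6b on chromosome 9, was at 6.51 to 6.89 CPM in the 3 WT HFD libraries and 67.2 to 322 CPM in the other 9. Whether that bears on Rab6b was not tested.

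Leaving out WT chow replicate 1 or 2, the libraries with the length trend, or WT HFD replicate 1 or 3 left no member called between diets in WT, and 1.05%, 2.59%, 3.73% and 0.778% of all genes. Without WT chow replicate 3, 12 members were called (8 higher and 4 lower), with 39.9% of all genes. Over the 22 alternatives the log2 fold changes ran from -0.65 to -0.42 for Rab5b, -0.54 to -0.41 for Rab40c, -0.44 to -0.25 for Rab8b, -1.59 to -1.04 for Rab6b and 0.51 to 0.97 for Rab20.

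**Figure D4:**
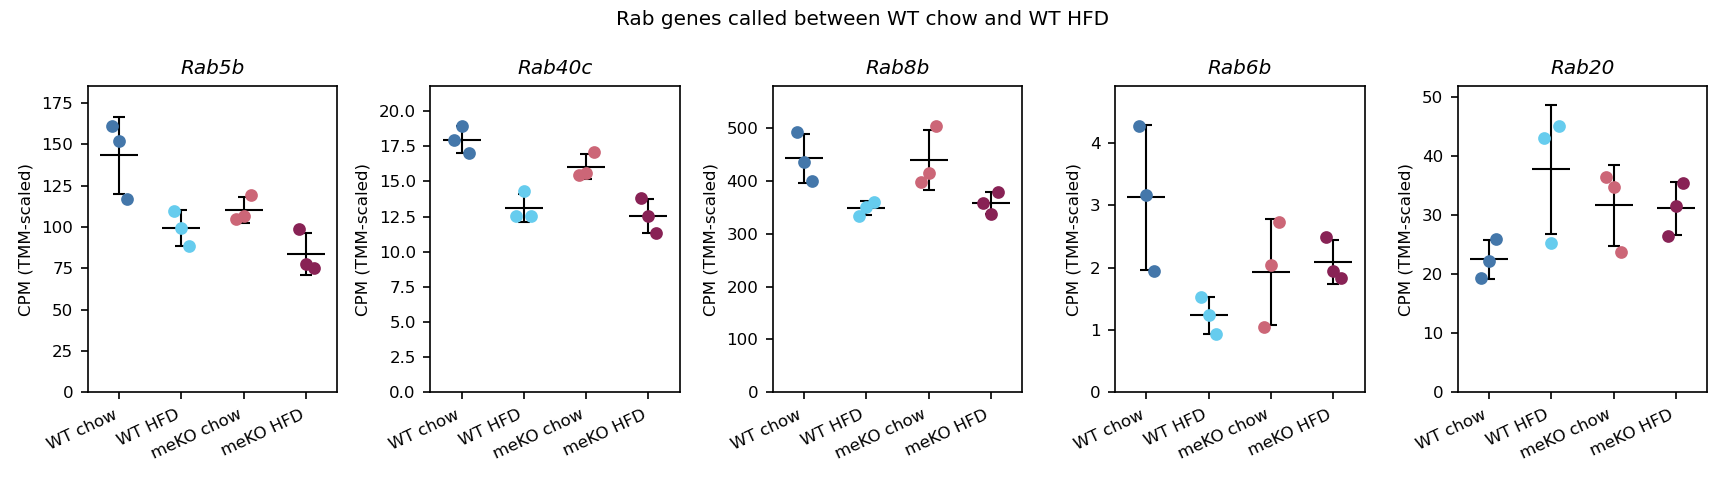
CPM of the 5 Rab genes called between diets in WT, in every library by group; points are libraries, horizontal lines are means of 3 and error bars are SD. For Rab5b, Rab40c, Rab8b and Rab6b the WT HFD points lie below the WT chow points, and for Rab20 the WT HFD replicate at 25.2 falls within the WT chow range of 19.3 to 25.9.

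Averaged over genotypes, diet called 3 members higher and 6 lower (9 of 46, 19.6%), against 14.9% and 15.3% of all genes in the same directions and 30.2% in either. Rab5b (-0.46, edgeR adjusted p = 0.00873), Rab40c (-0.40, edgeR adjusted p = 0.00755) and Rab8b (-0.32, edgeR adjusted p = 0.0136) fell on HFD, as did Rab3d (see its values by group). These 4 passed in 21 of 21 alternatives. Rab14 (-0.24, edgeR adjusted p = 0.0459) and Rab33b, a Golgi Rab that binds the autophagy factor Atg16l1 (-0.29, edgeR adjusted p = 0.0441), also fell, passing in 13 and 12 of 21. Neither was called without WT chow replicate 1 or 2, and Rab33b was not called without meKO chow replicate 2. Rab14 was at 344 to 367 CPM in WT chow and 279 to 300 CPM in WT HFD, and at 293 to 370 and 246 to 321 CPM in meKO, where the diets overlapped.

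Rab7b, Rab2a and Rab28 rose on HFD in the averaged contrast. Rab7b, which acts between late endosomes and the Golgi and in Toll-like receptor traffic, was at 297, 281 and 242 CPM in WT chow and 298, 292 and 315 CPM in WT HFD. In meKO it was at 282, 342 and 277 CPM on chow and 356, 392 and 391 CPM on HFD, the 3 highest libraries of the 12. Averaged over genotypes the rise was 0.24 (SE 0.08, edgeR adjusted p = 0.0362), and in meKO alone the value was 0.34 (SE 0.11, edgeR adjusted p = 0.219). Between genotypes on HFD it was 0.33 (SE 0.11, edgeR adjusted p = 0.805). Rab2a, an ER to Golgi Rab, was 0.22 higher (edgeR adjusted p = 0.0478) and Rab28 0.23 higher (edgeR adjusted p = 0.0422). Rab7b, Rab2a and Rab28 passed in 12, 10 and 11 of 21 alternatives, and Rab2a was at 0.05 and Rab28 at -0.01 after the length and GC correction. Rab2a and Rab28 were not called without WT chow replicate 1 or 2, nor was Rab7b without WT chow replicate 2.

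Exon length moved with several of these values. Across the 46 members, the log2 fold change and exon length had a Spearman rho of -0.56 between genotypes on chow and -0.55 between diets in WT, the comparisons that use the WT chow libraries. Across all genes with a length the values were -0.61 and -0.55. The rho over members was -0.04 between genotypes on HFD and -0.23 between diets in meKO, with -0.26 and -0.33 across all genes. These are descriptions across genes that share the same libraries. The 16 shortest members (1168 to 2133 bases of exon) were all positive between genotypes on chow, with a median of 0.21. After the length and GC correction 9 of them were positive and 7 negative, with a median of 0.01. The correction moved the 15 middle members from a median of -0.03 to -0.14 (4 positive and 11 negative after it). It moved the 15 longest from -0.01 to 0.14 (10 positive and 5 negative after it). For Rab3d, at 3958 bases, the correction gave -1.30 between genotypes on HFD and -1.07 between diets in meKO. Its diet difference in WT went from 0.17 to 0.37 (adjusted p = 0.0525 by edgeR), its diet difference averaged over genotypes from -0.50 to -0.35, and its interaction to -1.44 with an edgeR adjusted p of 0.00423.

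**Figure D5:**
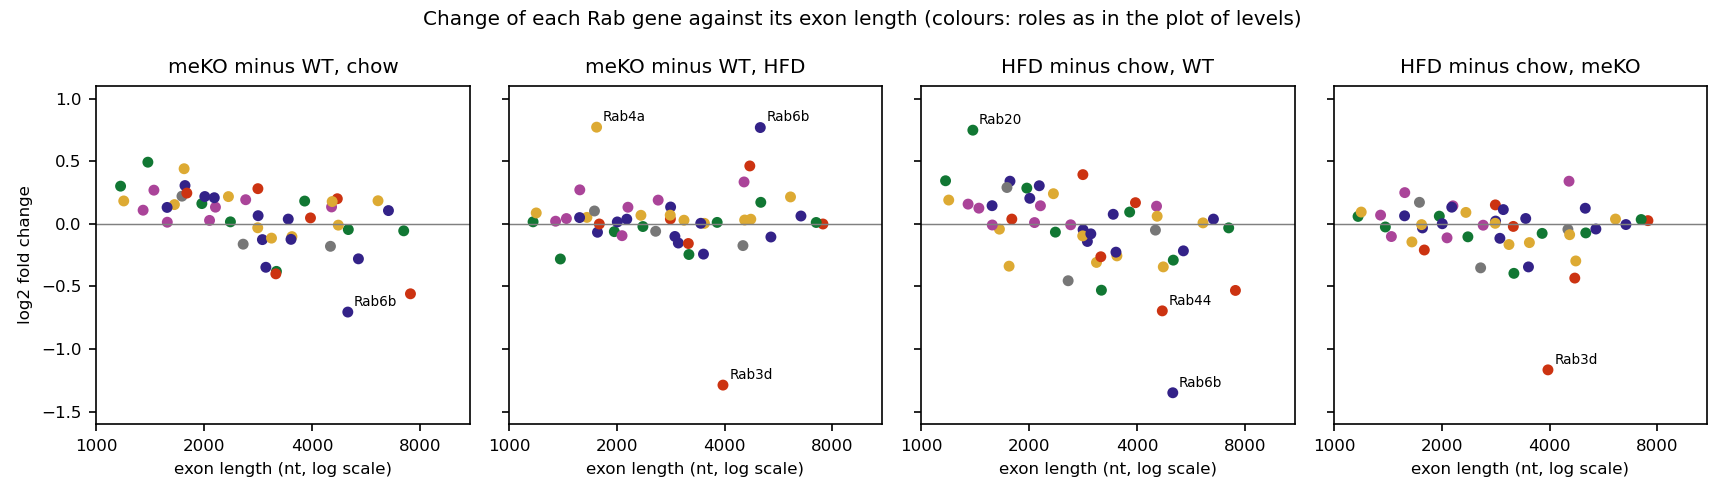
Log2 fold change of each Rab gene against its exon length in bases (log scale) in 4 comparisons, coloured by role. Points fall from left to right between genotypes on chow (rho -0.56) and between diets in WT (rho -0.55), less so between diets in meKO (-0.23) and not between genotypes on HFD (-0.04).

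The genes that act on Rabs were counted from lists of their known members. No GEF, GAP, prenylation factor, effector or Rab kinase was called by edgeR between genotypes on either diet or between diets in meKO. Of these 131 genes, 42 had an unadjusted edgeR p under 0.05 between genotypes on chow, 3 on HFD and 20 between diets in meKO. Of all genes, 19.8%, 4.56% and 15.9% had such a p. DESeq2 called 10, 0 and 1 of the 131 in those contrasts, against 5.54%, 0.43% and 1.84% of all genes. Limma-voom called 0 in each, against 0.0162%, 0.0405% and 0.0729%. With quality weights it called 64, 0 and 3, against 32.8%, 1.04% and 3.23%. Between diets in WT, 12 of 35 GEFs in the table (38 listed) were lower and none higher, where 11.8% of all genes were lower and 9.5% higher, with a median of -0.38 against -0.03 over all genes. Rin3, a GEF of Rab5 proteins, fell by 1.18 (edgeR adjusted p = 0.0132), Dennd4b by 0.64 (edgeR adjusted p = 0.0205) and Dennd2c by 0.67 (edgeR adjusted p = 0.0213). After the length and GC correction Rin3 was at -0.78 and still called, while Dennd4b (-0.22) and Dennd2c (-0.49) were not. Of 39 GAPs in the table (41 listed), 11 were lower and none higher (median -0.28), beside the same shares of all genes, with Tbc1d5, a GAP of Rab7, at -0.88 (edgeR adjusted p = 0.0118), Tbc1d22b at -0.78 and Tbc1d31 at -0.64.

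Of 47 effectors in the table (59 listed), 10 were lower and none higher between diets in WT, against 11.8% and 9.5% of all genes, with a median of -0.36. Plekhm2, a lysosome and kinesin adaptor, fell by 0.86 (edgeR adjusted p = 0.00688) and passed in 22 of 22 alternatives, at -0.56 after the correction. Fyco1, the Rab7 effector that moves autophagosomes, fell by 0.78 (edgeR adjusted p = 0.0107; -0.42 after the correction), and Wdr44, a Rab11 effector, by 0.72 (edgeR adjusted p = 0.0185). Of 7 prenylation and membrane extraction genes, Rabac1, which releases Rabs from GDI, rose by 0.70 (edgeR adjusted p = 0.0250; 0.45 after the correction) and no other was called. Of the 3 Rab kinase and phosphatase genes, Lrrk1, a Rab7 kinase, fell by 0.58 (edgeR adjusted p = 0.0317). It was at -0.14 after the correction and passed in 15 of 22 alternatives. Plekhm2 was the sole one of these named partners still called between diets in WT when either replicate 1 of WT chow or replicate 3 of WT HFD was left out.

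These partners are long, with median exon lengths of 5120 bases for GEFs, 5094 for GAPs and 5079 for effectors against 3183 over all genes. After the length and GC correction 1 GEF, 4 GAPs and 5 effectors were lower between diets in WT, a GAP and an effector were higher, against 7.44% lower and 5.2% higher of all genes, and the medians were -0.12, -0.10 and -0.12. In meKO, where WT chow has no part, 34 of 39 GAPs were negative between diets with none called (median -0.22, against -0.01 over all genes), and 32 of 39 after the correction (median -0.17). For effectors it was 40 of 47 (median -0.19) and 35 after the correction (median -0.09), and for GEFs 23 of 35 (median -0.10) and 19 (median -0.03). Averaged over genotypes 13 GEFs, 15 GAPs and 17 effectors were lower on HFD and 1 effector was higher, against 15.3% and 14.9% of all genes. Rin3 fell by 0.99 (edgeR adjusted p = 0.00461), Tbc1d22b by 0.61 (edgeR adjusted p = 0.00503) and Plekhm2 by 0.65 (edgeR adjusted p = 0.00326) in that contrast.

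Counts of some members are uncertain, because their exons overlap other genes and no strand setting is given. The largest overlaps were 85.2% of Rab4b exon bases with Gm21983 and 77.3% of Rab43 with Gm45140, both on the same strand. On the opposite strand Gm43766 covers 70.9% of Rab2b and Prelid1 66.4% of Rab24. Prelid1 was at 178 to 370 CPM, above Rab24, which had a mean of 39.3 CPM. In WT on HFD Prelid1 rose (0.67, edgeR adjusted p = 0.0114). Rab24 was not called there by edgeR, but DESeq2 called it higher (0.36, DESeq2 adjusted p = 0.0277), along with 28.5% of all genes in either direction. Whether Prelid1 reads bear on the Rab24 counts was not tested. Processed pseudogenes of Rab7, Rab5a, Rab11b and Rab9b are annotated, and how reads shared with them were counted is not given in the sources used here. No annotated gene was found to overlap the exons of Rab3d or Rab5b.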

How the data were processed

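RNA from 12 libraries of elicited peritoneal macrophages was prepared with the TruSeq protocol, per the labels' protocols. The authors deposited whole-number counts per gene for all libraries in 1 table. Build mm10 and the tool DESeq2 are named per the submitters' processing notes; the aligner, counting tool and strand setting are not given in the sources used here. Genes without a symbol (186, holding 0.440% of counts) stayed in the fit.

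Counts were fitted in edgeR 4.0.16 (R 4.3.3) with TMM factors, a mean for each of 4 groups, robust quasi-likelihood F tests and 7 contrasts. All 12339 genes passed filterByExpr, p-values were adjusted over all of them (Benjamini-Hochberg) and an adjusted p under 0.05 was called. The analysis was tested on simulated counts. Lengths are the union of exons in GENCODE M21 (GRCm38), and promoter windows are from RefSeq. Total counts per library were 25844958 to 37282772.

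Named genes are Rab3d, each member called in any contrast, the highest member of each role, the highest and lowest members by CPM, up to 3 called genes of smallest p per partner list and contrast, Prkce and Lyz2 as label checks, and neighbours within 1 Mb of Rab3d. Rab4a, Rab27a, Rab7, other secretion genes, Rpl29 and overlapping genes were added after values were seen. Some genes that this rule names, and the cargo of the vector, are not reported here. The members, lists and rules were chosen with earlier results of these data known. Alternatives were other scalings (median of ratios, library totals), a minimum of 10 counts per library or no filter, voom (limma 3.58.1) with and without quality weights, DESeq2 1.42.0, non-robust dispersions, a spline correction for length and GC (5 degrees of freedom), fitting just the groups compared, and leaving out each library. Those for partner and neighbour genes were chosen after seeing the data. Because all genes passed filterByExpr, the fit with no filter repeats the main fit, yet it is counted among the alternatives. Of the further marker lists, eosinophil markers (2 of 4 in the table) summed to 13.2 to 52.9 CPM over all libraries.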

Additional observations from a re-analysis of the deposited data

How the results depend on the processing

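No paired analysis was possible because replicate numbers follow accession order and pair no samples. Of 280 recomputed counts of calls, 196 stayed within 1.5 times the reported count. Of 1290 recomputed log2 fold changes, 1112 kept their direction and side of the threshold, 150 lost the call, 14 gained it and 14 changed sign.

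With voom quality weights the called members numbered 9, 2, 19 and 4 for genotype on chow, genotype on HFD, diet in WT and diet in meKO, and 15, 18 and 1 for genotype averaged, diet averaged and the interaction, while 32.8%, 1.04%, 52%, 3.23%, 31.1%, 51% and 2.39% of all genes were called. In the same setting 27 GEFs, 25 GAPs and 32 effectors were called between diets in WT and 25, 25 and 32 averaged over genotypes. DESeq2 called 11 members for diet in WT and 1 for the interaction, with 28.5% and 0.122% of all genes. The length and GC correction gave 1 for the interaction, 1 GEF, 5 GAPs and 6 effectors for diet in WT and 7, 9 and 11 averaged. With that correction 0.0324% of all genes were called for the interaction, 12.6% for diet in WT and 23.3% averaged. Fitting just the groups compared gave 0 members for diet in meKO and 7 GEFs for diet in WT, with 0.00811% and 16.7% of all genes. That fit has no value for averaged contrasts or the interaction.

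Leaving out each library in turn gave 0 to 4 members for genotype on chow, 1 to 1 for genotype on HFD, 0 to 12 for diet in WT, 0 to 1 for diet in meKO, 0 to 3 for genotype averaged, 4 to 15 for diet averaged and 0 to 1 for the interaction. The share of all genes called also moved. In the same order it ran from 0.0162% to 20.6%, 0.0243% to 0.13%, 0.778% to 39.9% and 0.0081% to 1.09%. For the averages and the interaction it ran from 0.0648% to 11.3%, 15.9% to 43.2% and 0.0081% to 0.454%. GEFs ranged from 0 to 22 in WT and 5 to 24 averaged, GAPs from 0 to 20 and 11 to 23, and effectors from 1 to 25 and 8 to 27. The highest counts came without WT chow replicate 3, except where 1 was the highest. The cause was not tested.

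Sign changes occurred in values near 0 or short of the threshold and in Rab28 averaged over genotypes, which was -0.0050 after the length and GC correction. Rab20 in meKO was 0.094 with quality weights and ran from -0.19 to 0.078 when single libraries were left out, being above 0 without meKO chow replicates 1 (0.078) and 2 (0.039) and meKO HFD replicate 1. Rab6b in meKO ran from -0.19 to 0.45, falling below 0 without meKO chow replicate 1 and without meKO HFD replicate 1 (-0.027). The Rab8b interaction was 0.20 with quality weights and ran from -0.058 to 0.16 when single libraries were left out. It was below 0 without WT chow replicate 1, meKO chow replicate 1 (-0.033) or 2 (-0.0053), or meKO HFD replicate 3 (-0.0076). Rab3d between genotypes on chow was -0.027 with library totals and ran from -0.032 to 0.21, below 0 without WT chow replicate 3 and without meKO chow replicate 1 (-0.014). Members under 100 counts in a library (8 of 46) give the least precise values.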
